A study of Mus musculus with 10 samples.

Results

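The effect of losing Runx3 on cultured splenic natural killer cells (NKC) grown in IL-2 was read from 6 of the 10 arrays of the series, chosen by their titles: 3 of Runx3 +/+ (WT) and 3 of Runx3 -/- (KO) mice. The mice were ICR animals aged 6 weeks, of either sex, and the design text states that each sample came from its own animal. Cells from spleen went through a negative selection kit for NKC and, as described in the methods, a DX5 sort. The culture lasted 7 days, with recombinant human IL-2 at 1000 u/ml. All arrays of both genotypes shared this culture, and no array of resting cells was used. The labels name no promoter, Cre or cell type that restricts the deletion, so other cells of the KO mouse may have lacked Runx3 before the NKC were taken. The other 4 arrays, 2 WT and 2 KO of NKC grown in IL-15, entered the fit and are shown beside the IL-2 values near the end.

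Runx3 is a runt domain transcription factor that binds DNA with its partner Cbfb and can raise or lower the transcription of its targets. In lymphocytes it is known for its part in cytotoxic lineages, among them NKC, which kill infected and tumour cells with granule proteins and grow in response to IL-2 and IL-15. The loss of such a factor can change the level of a gene directly or through other genes, and RNA levels do not separate the routes.

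Values are log2 signals per probe set. A gene was represented by its brightest probe set, and 9391 of 18194 genes reached log2 5 in at least 2 arrays and were tested. A difference is the log2 value of KO less that of WT, given as mean ± SD over 3 numbered pairs of a WT and a KO array. A gene was called where limma gave a p under 0.05 after Benjamini-Hochberg adjustment and the difference reached 1.5-fold. The words rose and fell are used for called genes. As deposited, the numbered pairs had equal sums for every probe set, so an array value shows its pair's difference around a common mean and the arrays do not show how far the original WT samples varied. If one group averaged under log2 5, taken as background, the fold is given as at least the distance from log2 5. In such bulk samples a change in the share of a cell type and a change in RNA per cell cannot be told apart.

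The probe set of Runx3 read 11.31, 11.57 and 12.06 in the WT arrays and 11.41, 11.15 and 10.66 in the KO arrays. The groups overlapped and the difference of -0.58 ± 0.76 was not called (adjusted p = 0.254). Whether these probes lie in the deleted stretch is not given, so this value checks no label. The 6 arrays had medians of 3.27 to 3.37, with log2 5 reached by 34.6% to 35.6% of their probe sets. The Actb control probe sets at the 3′ end, middle and 5′ end differed between genotypes by -0.02, 0.02 and 0.05, while those of Gapdh differed by -0.28, -0.59 and -0.72. The Gapdh difference was thus larger toward the 5′ end, and its part in the results was not tested. Xist lay between 4.64 and 5.37 and the Y-linked gene Eif2s3y between 7.31 and 9.17 in the 6 arrays, and neither was called.

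In KO cells 1851 genes were called, 19.7% of those tested. Of these 990 rose, 10.5% of tested genes, and 861 fell, 9.17% of tested genes. With folds bounded at log2 5 where a group lay at background, 262 rises and 280 falls reached 4-fold, 11 and 46 reached 16-fold, and 2 and 11 reached 64-fold. The genes that rose had a median WT level of 7.96 and those that fell one of 9.43, against 9.10 for all tested genes. All called genes moved one way in 3 of 3 pairs, as did 54.0% of tested genes, and the WT and KO arrays of 54.4% of tested genes did not overlap. A total of 312 called genes had a group at background, 9 of them in both groups. The count was 537 without pair 1 and 1026 without pair 2. It was 3803 when the pairing was left out, a fit that takes the spread as too small. None of the 1851 genes changed direction in these fits, which follows from their equal direction in all 3 pairs.

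The clearest separation was seen in 27 genes that were under log2 5 in every array of one genotype and at log2 8 or more in every array of the other, and all of them were called. Those seen in KO cells numbered 11. Tspan32, a tetraspanin of lymphoid and blood cells, had 2.77, 3.09 and 2.80 in WT and 11.20, 10.87 and 11.16 in KO arrays, a difference of 8.19 ± 0.35. Another probe set of Tspan32 had means of 5.77 in WT and 7.19 in KO arrays, a difference of 1.43 ± 0.13. The absence in WT and the size of the rise thus rest on 1 probe set. Rxra, the retinoid X receptor alpha and partner of many nuclear receptors, had 4.03, 3.97 and 4.07 in WT and 8.62, 8.68 and 8.58 in KO arrays. Its difference of 4.60 ± 0.10 was the least variable of the set. Tnfsf14 (LIGHT), a TNF family ligand, followed with 3.25, 3.12 and 3.08 against 8.10, 8.23 and 8.27. In these 3 genes the spread between pairs was small. The others were the B cell scaffold gene Bank1, the cannabinoid receptor Cnr2, carboxypeptidase D (Cpd), the retinal reductase Dhrs3, Gpnmb, Grasp, Rnase4 and Sh3d19, with differences from 3.94 for Cnr2 to 7.36 for Grasp.

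Another 16 of these genes were seen in WT cells and lay at background in KO cells. Tmem119 had 12.97, 9.76 and 13.12 in WT and 1.68, 4.88 and 1.53 in KO arrays, a fall of at least 123.7-fold. E-cadherin (Cdh1) had 9.70, 8.34 and 10.38 against 3.24, 4.59 and 2.56. Vegfa, the vascular growth factor, had 9.04, 8.67 and 9.70 against 3.52, 3.90 and 2.87. For Tmem119 and Cdh1 the second pair was the closest. Nckap1, a subunit of the WAVE complex that drives actin branching, had 8.11, 8.32 and 8.26 against 3.95, 3.73 and 3.79, the most even of the 16. The rest were the glycosyltransferases B4galnt2 and B4galt6, cystathionine gamma-lyase (Cth), the inhibitory receptor Ctla4, desmoglein 2 (Dsg2), follistatin (Fst), the protein C receptor Procr, the phosphatase Ptprf, Cystm1, Hrc, Scel and Tmem171.

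**Figure D1:**
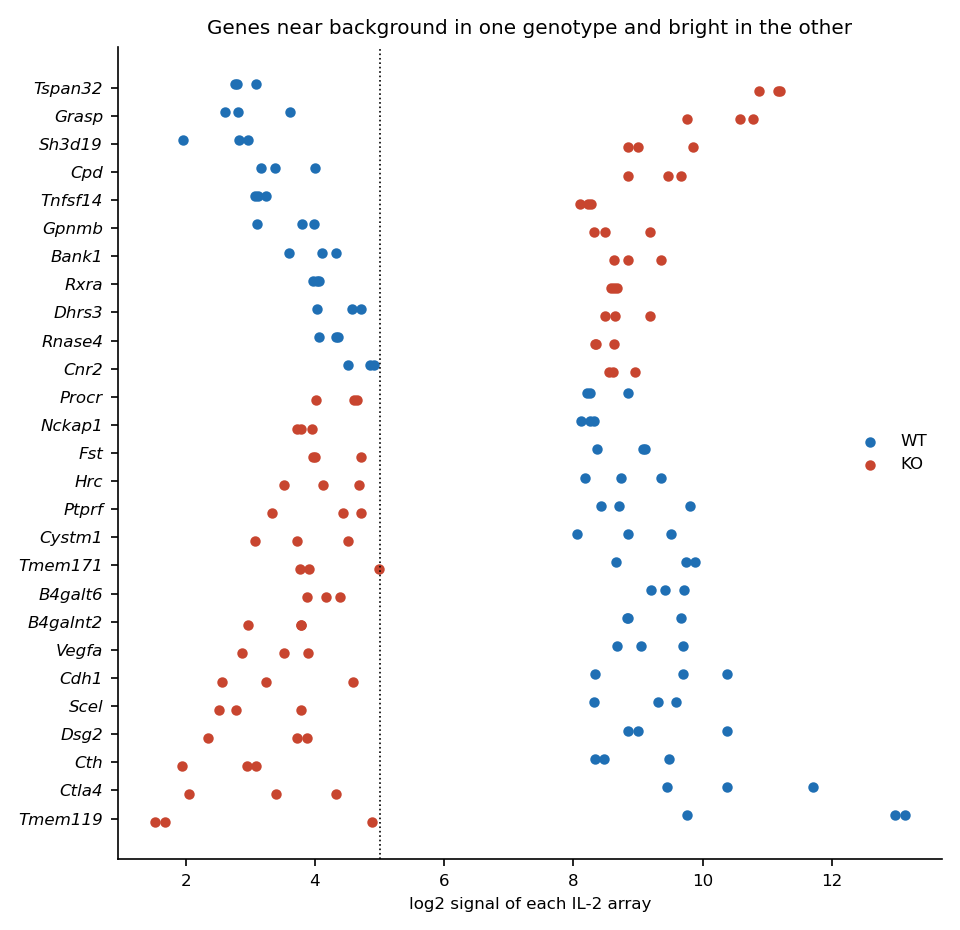
Log2 signal of each of the 3 WT (blue) and 3 KO (red) IL-2 arrays, on the x axis, for the 27 genes at background in one genotype and bright in the other, ordered by difference, with log2 5 as a dotted line. The 11 genes at the top were bright in KO arrays alone and the 16 at the bottom in WT arrays alone, with Tspan32 and Tmem119 at the ends.

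Tspan32 and 2 genes with falls described next are shown with their RefSeq promoters (GRCm38.p6, plus strand, 250 bases before to 50 after the start), because they carry several RUNX-type motifs and large differences. Capitals mark any of 4 RUNX-type motifs on either strand, which may overlap. The first was TGTGGT, the core most often given for this family. A variant of it ended in another base and was searched for as TGTGGC. The remaining motifs changed the third base, and one of them was written as TGCGGT for the search. The last motif carried both changes and was entered as TGCGGC beside the others.
Tspan32, chr7:143004796-143005095: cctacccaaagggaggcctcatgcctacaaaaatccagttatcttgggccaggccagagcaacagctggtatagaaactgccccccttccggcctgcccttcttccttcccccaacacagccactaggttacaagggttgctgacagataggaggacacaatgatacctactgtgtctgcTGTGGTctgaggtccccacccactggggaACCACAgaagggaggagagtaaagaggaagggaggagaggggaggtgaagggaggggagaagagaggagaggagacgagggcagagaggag
Dsp, chr13:38151044-38151343: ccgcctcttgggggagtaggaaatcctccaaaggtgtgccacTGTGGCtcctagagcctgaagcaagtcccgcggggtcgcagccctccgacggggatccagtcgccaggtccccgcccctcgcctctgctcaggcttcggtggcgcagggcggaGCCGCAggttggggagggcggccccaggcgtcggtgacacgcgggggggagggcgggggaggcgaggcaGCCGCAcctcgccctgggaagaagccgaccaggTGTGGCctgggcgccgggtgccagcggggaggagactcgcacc
Mylk, chr16:34784700-34784999: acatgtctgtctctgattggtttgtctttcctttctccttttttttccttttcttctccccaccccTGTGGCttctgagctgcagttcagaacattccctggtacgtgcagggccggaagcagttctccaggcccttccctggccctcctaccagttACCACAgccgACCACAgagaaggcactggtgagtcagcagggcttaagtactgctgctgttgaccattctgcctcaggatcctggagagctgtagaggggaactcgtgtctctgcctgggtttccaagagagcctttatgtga
The Tspan32 window held 2 matches, that of desmoplakin (Dsp) 4 and that of the myosin light chain kinase gene Mylk 3. Among all 32851 RefSeq promoters 45.2% held at least 1 such match. The share was 49.1% for the promoters of genes that rose, 50.9% for those of genes that fell and 49.7% for tested genes that were not called.

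Genes of cell junctions fell more often than those of any other list examined. Of 30 members of the list of cadherins, desmosome and tight junction proteins, 27 had a probe set and 15 were tested. Of these 12 fell (80.0%, against 9.17% over all tested genes) and 0 rose, with a median difference of -3.89. A gene bright in 1 genotype alone passes the filter, as Cdh1 and Dsg2 did in IL-2. Members at background in all arrays do not, so the filter can raise this share and median. Desmosomes are patches that bind epithelial cells through the cadherins desmocollin and desmoglein, which plakophilins and desmoplakin tie to filaments. Desmocollin 2 (Dsc2) had 13.70, 12.50 and 13.69 in WT and 6.11, 7.31 and 6.12 in KO arrays, a 110.3-fold fall. Dsp had 10.90, 10.22 and 11.59 against 5.35, 6.04 and 4.67. Plakophilin 2 (Pkp2) had 9.93, 9.10 and 9.43 against 5.04, 5.87 and 5.55. For all 3 the WT arrays lay more than 3 log2 units above the KO arrays. The tight junction scaffold Tjp1 (ZO-1) fell evenly, from 12.07, 12.05 and 11.71 to 7.14, 7.16 and 7.50. Epcam, an epithelial adhesion molecule, fell by 3.89 ± 1.64 on the log2 scale, the junction adhesion molecules Jam2 and F11r by 4.15 ± 1.88 and 2.83 ± 1.63, and Cdh17 by 3.55 ± 1.67. The catenin Ctnna1 and the nectin-like receptor Pvr fell the least. Beta-catenin (Ctnnb1) had a difference of -0.10 ± 0.30, Pkp3 of -0.62 ± 0.59 and Pkp4 of 0.50 ± 0.73, and these 3 were not called. The falls numbered 5, 10 and 9 without pair 1, 2 and 3 in turn, and 6 when no filter on low values was applied.

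Genes of amino acid supply and of the ATF4 stress response fell in KO cells. ATF4 is a transcription factor that cells use to raise amino acid synthesis, tRNA charging and uptake when amino acids run short. Of 34 tested genes of this list 20 fell (58.8%, against 9.17% over all tested genes) and 1, Gadd45a, rose, with a median of -1.24. Cth, which makes cysteine, had 8.33, 8.47 and 9.47 in WT and 3.09, 2.95 and 1.94 in KO arrays. The glutathione-cleaving enzyme gene Chac1 had 10.08, 8.57 and 10.45 against 3.5, 5.0 and 3.13. The pseudokinase gene Trib3 had 12.06, 10.22 and 12.40 against 5.49, 7.33 and 5.16. All 3 are known targets of ATF4, and in Chac1 and Trib3 the second pair was the closest. Asparagine synthetase (Asns) fell 14.6-fold, from 14.34, 13.43 and 14.15 to 9.74, 10.65 and 9.93. Gpt2, an alanine transaminase, fell at least 29.9-fold and the stress gene Nupr1 at least 9.59-fold.

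The tRNA synthetase genes fell by less. Cars fell by 2.35 ± 0.13 and Eprs by 2.17 ± 0.84 on the log2 scale. Nars, Aars, Yars, Gars and Sars had falls between -1.56 ± 0.05 and -0.93 ± 0.33, while Tars (-0.99 ± 0.45), Wars (-0.81 ± 0.39) and Mars1 (-0.64 ± 0.13) were not called. Atf4 itself differed by -0.45 ± 0.18 (adjusted p = 0.373). The serine enzymes Phgdh (-0.21 ± 0.12), Psph (-0.05 ± 0.45) and Shmt2 (-0.31 ± 0.06) were not called either, while Psat1 fell by 0.95 ± 0.26 on the log2 scale. The 20 falls became 4, 9 and 8 without pair 1, 2 and 3, and 5 with no filter on low values.

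Transporters of amino acids moved both ways. Of 19 tested 5 fell (26.3%, against 9.17% over all tested genes) and 3 rose (15.8%, against 10.5%). The cationic amino acid carrier Slc7a3 had 8.50, 7.45 and 8.88 in WT and 2.51, 3.56 and 2.13 in KO arrays. The neutral amino acid carrier Slc1a4 fell 22.2-fold and Slc7a5, the light chain of the large neutral amino acid carrier LAT1, fell 6.36-fold, from 13.65, 13.22 and 13.91 to 10.86, 11.30 and 10.61. Its partner Slc3a2 had a difference of -0.99 ± 0.58 that was not called. The lysosomal carrier Slc36a1 rose by 2.91 ± 0.66 and Slc43a2 by 2.32 ± 0.59. The glutamine carriers Slc1a5 (-0.57 ± 0.07), Slc38a1 (-0.07 ± 0.61) and Slc38a2 (-0.19 ± 0.48) were not called. The 5 falls became 3, 4 and 5 without pair 1, 2 and 3.

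**Figure D2:**
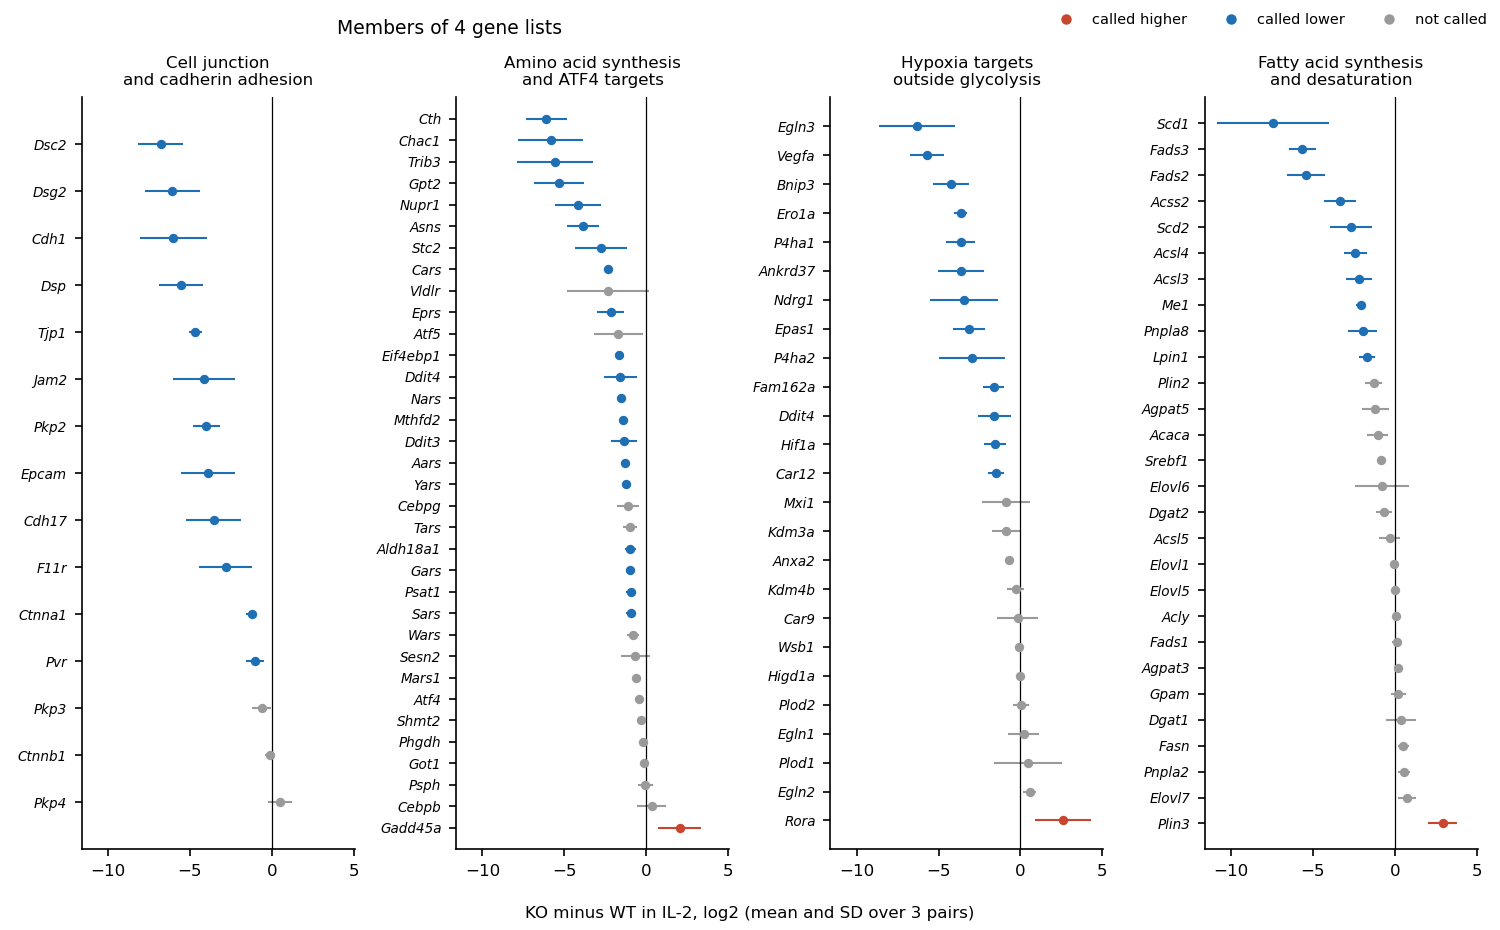
Log2 difference between KO and WT in IL-2 (x axis; mean and SD over 3 pairs) for each tested member of 4 lists, coloured by call. Called members lay to the left of 0 except Gadd45a, Rora and Plin3, and the list of junction genes had 12 of 15 members called lower.

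Several fatty acid desaturases fell in KO cells. Of 28 tested genes of fatty acid synthesis 10 fell (35.7%, against 9.17% over all tested genes) and 1, the lipid droplet protein Plin3, rose. The delta-9 desaturase Scd1 had 14.72, 11.66 and 14.50 in WT and 5.08, 8.14 and 5.31 in KO arrays. Fads2, the delta-6 desaturase, had 10.80, 9.66 and 10.10 against 4.15, 5.29 and 4.86. Fads3, of the same family, had 7.08, 7.57 and 7.90 against 2.30, 1.81 and 1.48. The groups were far apart for all 3, with the closest pair of Scd1 and Fads2 being the second. Scd2 fell 6.35-fold, the acetyl-CoA synthetase Acss2 10.1-fold and malic enzyme (Me1) 4.20-fold. The chain-building enzymes were not called. Fatty acid synthase (Fasn) differed by 0.53 ± 0.36, ATP citrate lyase (Acly) by 0.05 ± 0.16, Acaca by -1.05 ± 0.64 and Elovl6 by -0.76 ± 1.66. Genes not called may still differ. In simulated data 8.4% of log2 changes of 1 were called. Fewer genes were changed there than were called here, which makes the adjusted p stricter, so this share may be too low for these data. Fads1, another desaturase of the Fads family, differed by 0.11 ± 0.27. The 10 falls became 8, 9 and 11 without pair 1, 2 and 3, and 6 with no filter on low values.

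Among 29 tested genes of fatty acid oxidation and peroxisomes 1 was called (3.45%, against 19.7% over all tested genes). This was Acaa2, which rose by 0.98 ± 0.19. In the TCA cycle and at the entry of pyruvate 7 of 30 fell (23.3%, against 9.17% over all tested genes) and 1 rose. Pyruvate dehydrogenase kinase Pdk1 and phosphatase Pdp1, which act against each other on the same complex, both fell, by 1.96 ± 0.70 and 1.92 ± 0.13 on the log2 scale. Cytosolic Idh1 fell by 1.78 ± 0.63 on the log2 scale while mitochondrial Idh2 rose by 1.67 ± 0.19. Pyruvate carboxylase (Pcx) fell by 1.82 ± 0.69 on the log2 scale. The 7 falls became 3, 3 and 5 without pair 1, 2 and 3. Of 17 tested genes of sterol uptake, export and sensing 3 fell and 1 rose (23.5% called, near the 19.7% over all tested genes). Without pair 1, 2 and 3 these falls numbered 1, 1 and 3. Abca1, which exports cholesterol, fell by 3.57 ± 1.12 on the log2 scale to background. Abca3, known as a phospholipid transporter, rose from 2.19, 2.06 and 2.24 to 6.64, 6.77 and 6.58.

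Hypoxia targets outside glycolysis had a median difference of -1.48. Of 25 tested 13 fell (52.0%, against 9.17% over all tested genes) and 1, Rora, rose. Such genes are switched on by the HIF transcription factors when oxygen is low or the factors are stabilised. The prolyl hydroxylase Egln3, itself a target that limits HIF, had 12.18, 10.02 and 10.40 in WT and 3.24, 5.4 and 5.03 in KO arrays. The mitophagy receptor gene Bnip3 had 13.21, 12.16 and 13 against 8.14, 9.19 and 8.35. Collagen prolyl hydroxylase P4ha1 had 10.59, 9.71 and 10.04 against 5.99, 6.86 and 6.54. In each the KO arrays were lower by more than 2 log2 units in every pair. The oxidoreductase Ero1a fell by 3.66 ± 0.39, Ankrd37 by 3.63 ± 1.43 and Ndrg1 by 3.45 ± 2.07 on the log2 scale. Both HIF alpha subunits fell as well, Epas1 (HIF-2 alpha) by 3.13 ± 0.99 and Hif1a by 1.54 ± 0.67 on the log2 scale. Egln1 (0.19 ± 0.97), Egln2 (0.56 ± 0.42), Kdm3a (-0.88 ± 0.87) and Higd1a (-0.04 ± 0.15) were not called. The falls numbered 6, 9 and 9 without pair 1, 2 and 3, and 4 with no filter on low values.

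**Figure D3:**
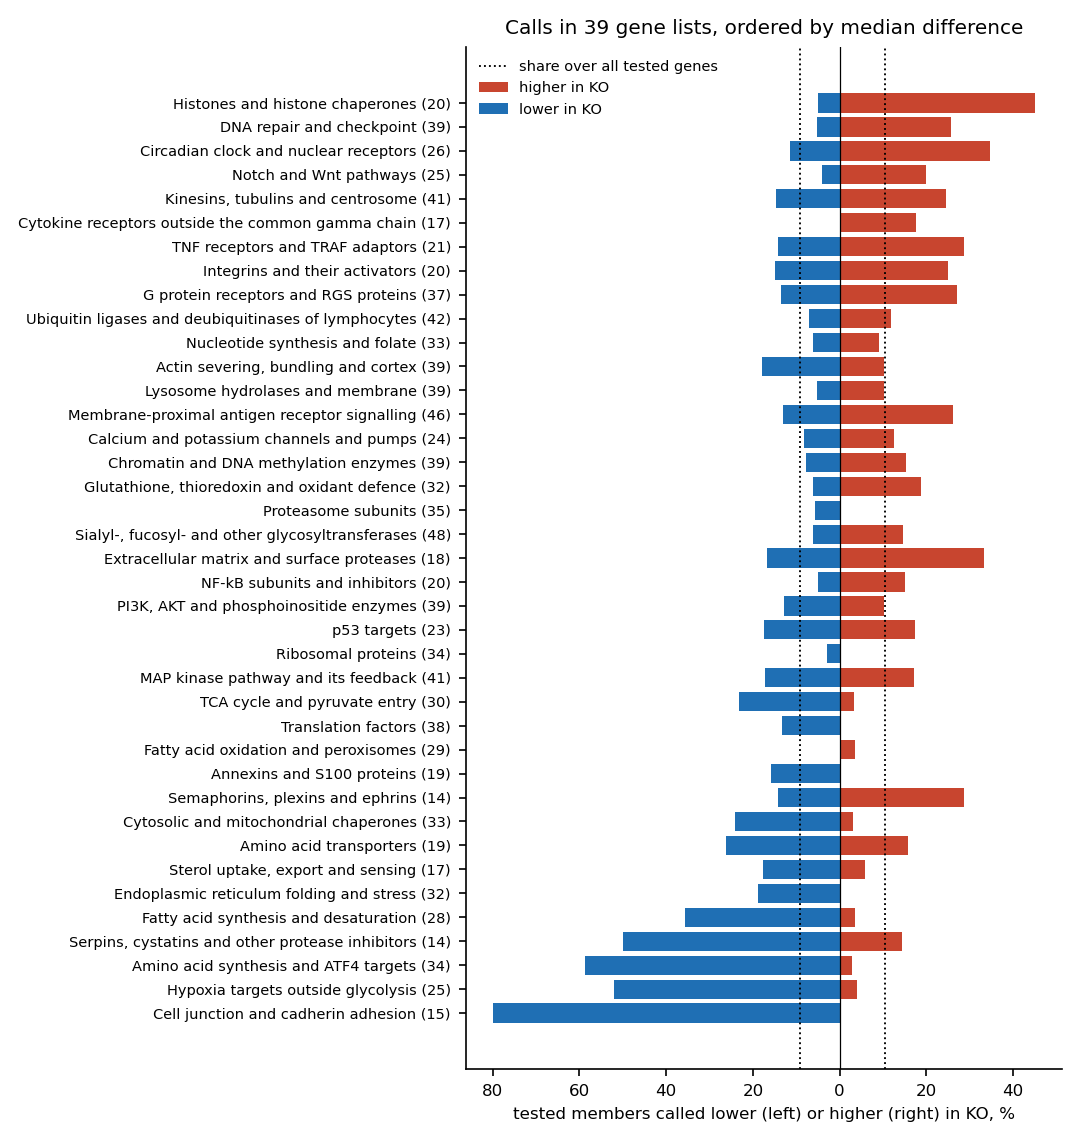
Share of tested members called lower (blue, to the left) or higher (red, to the right) in KO cells in IL-2, in percent, for 39 gene lists ordered by median difference, with the number tested in parentheses and dotted lines at the shares over all tested genes (9.17% and 10.5%). Junction, hypoxia, amino acid and protease inhibitor lists had the longest bars to the left, histones and clock genes the longest to the right, and ribosomal proteins and fatty acid oxidation genes almost none.

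Neighbouring genes on a chromosome fell or rose together in places. In the order of 9370 tested genes with a position, 36 runs of 3 or more adjacent tested genes were called in one direction. Several hold members of 1 gene family, whose probes may not be fully separate. With 10.5% of tested genes called higher and 9.17% lower, a random order would hold such runs too. Their expected number was not worked out. On chromosome 13 the clade B serpins Serpinb6b, Serpinb9, Serpinb9b and Serpinb1b fell. Serpinb9, which protects killer cells from their own granzyme B, had 13.65, 13.43 and 13.22 in WT and 11.12, 11.35 and 11.55 in KO arrays. Serpinb9b fell by 2.55 ± 0.35 on the log2 scale. Serpinb6a fell too, by 2.86 ± 1.0 on the log2 scale, while Serpinb1a rose by 1.07 ± 0.40. Of 14 tested protease inhibitors 7 fell (50%, against 9.17% over all tested genes) and 2 rose (14.3%, against 10.5%). The rise beside that of Serpinb1a was in Timp2, an inhibitor of matrix metalloproteases, by 3.65 ± 0.74. The protease Mmp9 rose as well, by 3.81 ± 1.34. Gzmb, whose product Serpinb9 inhibits, differed by -0.13 ± 0.10 and was not called. The 7 falls became 1, 4 and 6 without pair 1, 2 and 3, and 1 with no filter on low values.

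On chromosome 14 a run of the chymase locus held Cma1, Mcpt8 and Ctsg, and a second run held Gzmg, Gzmn, Gzmf and Gzmc, all lower in KO. Mcpt8, known as a basophil protease, had 14.44, 12.30 and 13.62 in WT and 5.84, 7.98 and 6.66 in KO arrays. Cma1 had 10.95, 9.65 and 10.83 against 3.85, 5.15 and 3.98. These are known as proteases of mast cells, basophils and neutrophils. Of 13 mast cell and basophil markers 9 were under log2 5 in all 6 arrays, the tryptase Tpsb2, Fcer1a and Ms4a2 among them. Kit was bright in both genotypes, with means of 11.26 and 11.04, and Cpa3 had 5.53, 5.59 and 5.74 in WT and 4.47, 4.41 and 4.26 in KO arrays and was not called. The summed signal of the 13 markers lay between 12.93 and 14.73 in WT and between 10.9 and 11.65 in KO arrays. Linear values were added, so the brightest members, Mcpt8 in WT and Kit in KO arrays, weigh most. The part of mast cells and basophils in these falls was not tested. Of the 12 granulocyte markers 10 were under log2 5 in all 6 arrays, Elane and Mpo included, while Ctsg fell from 13.57, 11.12 and 13.85 to 4.56, 7.02 and 4.28.

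The interferon-induced transmembrane genes Ifitm2, Ifitm1 and Ifitm3 on chromosome 7, which hinder virus entry, fell as a run. Ifitm1 had 15.22, 14.71 and 14.99 in WT and 13.54, 14.05 and 13.76 in KO arrays, and Ifitm2 14.49, 13.40 and 14.16 against 11.07, 12.16 and 11.40. Elsewhere on chromosome 7 Tspan32, Cd81 and Tssc4 rose together. Cd81, another tetraspanin, had 0.79, 3.39 and 2.66 against 10.04, 7.43 and 8.17, the most uneven of the 3. On chromosome 6 a run of Gimap3, Tmem176b, Tmem176a and Gpnmb rose, and another of Tapbpl, Cd27, Tnfrsf1a and Cd9. The Tmem176 genes are close relatives, and Cd27 and Tnfrsf1a belong to the TNF receptor family. On chromosome 17 the antigen processing genes H2-DMa, Psmb9 and Tap1 of the MHC region rose. Around Runx3 itself 8 of the 50 nearest tested genes were called (16%, against 19.7% overall), 6 of them higher, among them Cnr2 and E2f2.

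Several genes of the cytoskeleton had large falls. Of 39 tested genes of actin severing and bundling 7 fell (17.9%, against 9.17% over all tested genes) and 4 rose (10.3%, near the 10.5% over all tested genes). The actin-severing proteins scinderin (Scin) and advillin (Avil) fell far: Scin had 11.95, 11.50 and 14.06 in WT and 6.09, 6.54 and 3.99 in KO arrays. Fascin (Fscn1), which bundles actin in cell protrusions, had 11.13, 9.60 and 11.04 against 3.98, 5.51 and 4.07. Myo10, a motor of filopodia, had 11.46, 10.72 and 12.05 against 5.48, 6.23 and 4.89. In all 3 the KO arrays were lower by 4 log2 units or more in each pair. Mylk fell 23.3-fold. Of 20 tested integrins and activators 5 rose (25%, against 10.5% over all tested genes) and 3 fell (15%, against 9.17%). The collagen receptor chain Itga1, Itgav and Itgb1 fell and Itgb7, a chain of the gut homing receptor, rose from 9.75, 9.45 and 9.34 to 11.75, 12.06 and 12.16. Icam2 rose from 8.21, 8.19 and 7.92 to 10.53, 10.55 and 10.82. Without pair 1, 2 and 3 the actin list had 1, 1 and 2 rises and 3, 8 and 6 falls, and the integrin list 2, 2 and 4 rises and 1, 0 and 0 falls.

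Genes close to the antigen receptors rose more often than they fell. Of 46 tested genes of membrane-proximal signalling 12 rose (26.1%, against 10.5% over all tested genes) and 6 fell. The Src family kinase Blk had 2.90, 2.96 and 1.97 in WT and 7.81, 7.75 and 8.75 in KO arrays. Cd2, an adhesion and costimulatory receptor, had 9.39, 9.41 and 9.61 against 11.70, 11.68 and 11.48. The zeta chain Cd247 rose by 1.40 ± 0.26, Zap70 by 1.24 ± 0.20, Lat by 1.17 ± 0.05 and Syk by 1.56 ± 0.71. These are parts of the activating module. Negative regulators rose beside them: Csk, which switches Src kinases off, by 1.86 ± 0.34, Sla by 2.77 ± 0.61, Ubash3a by 2.60 ± 0.40 and the phosphatase Ptpn6 (SHP-1) by 1.46 ± 0.75. The ubiquitin ligase Cblb fell by 1.71 ± 0.87, the adaptor Fyb by 1.57 ± 0.68 and the kinases Tec and Txk by 1.55 ± 0.31 and 0.91 ± 0.34 on the log2 scale. The 12 rises became 6, 8 and 12 without pair 1, 2 and 3, and the 6 falls 1, 2 and 1.

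Receptors of the TNF family and G protein receptors had rises and falls. Tnfrsf25 (DR3) had 1.99, 2.06 and 0.81 in WT and 6.74, 6.67 and 7.92 in KO arrays, Tnfrsf13b (TACI) rose by 3.85 ± 0.14 and Cd27 by 1.97 ± 0.32. Tnfrsf9 (4-1BB) fell by 2.34 ± 0.87 on the log2 scale. Of 10 tested genes with the stem Rgs, which shorten G protein signals, 4 rose and 2 fell (60.0% called, against 19.7% over all tested genes). This was the highest share of the symbol stems with 10 or more tested genes. Rgs10 had 5.58, 6.04 and 5.91 against 9.66, 9.20 and 9.34. Rgs16 fell by 1.80 ± 1.10 on the log2 scale. The receptor for UDP-glucose P2ry14 fell from 12.18, 11.97 and 12.31 to 9.39, 9.60 and 9.26, and the sphingosine receptor S1pr3 from 7.75, 7.62 and 8.47 to 2.13, 2.26 and 1.41. Its relative S1pr5 rose by 5.48 ± 0.68. Of the prostaglandin receptors Ptger4 rose by 1.93 ± 0.84 and Ptger2 fell by 1.91 ± 1.0 on the log2 scale.

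In the nucleus, genes for histones and their chaperones had a median difference of 1.10. Of 20 tested 9 rose (45.0%, against 10.5% over all tested genes) and 1 fell. The variant H2A.Z gene H2az1 had 14, 14.37 and 14.41 in WT and 15.80, 15.42 and 15.38 in KO arrays. The related H2A.Z gene H2az2 rose by 1.38 ± 0.28 and the chaperones Asf1b and Chaf1b by 2.24 ± 0.87 and 1.94 ± 0.73. The linker histone H1f2 fell by 2.75 ± 0.89 on the log2 scale. DNA repair and checkpoint genes rose in 10 of 39 cases (25.6%, against 10.5% over all tested genes) and fell in 2. Timeless rose by 2.31 ± 0.96 and the polymerase subunit Pold1 by 2.09 ± 0.83, while the damage kinase Atr fell by 1.89 ± 1.23 on the log2 scale. Cbx2, a Polycomb subunit, rose by 2.78 ± 0.18, and the histone demethylases Kdm5a, Kdm5b and Kdm6a fell. Histone rises numbered 2, 5 and 5 and repair rises 2, 5 and 6 without pair 1, 2 and 3.

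Clock genes and nuclear receptors rose in 9 of 26 tested cases (34.6%, against 10.5% over all tested genes) and fell in 3 (11.5%, against 9.17%). Among the factors that bind D-box elements, the activators Dbp and Hlf rose, Dbp from 9.41, 9.95 and 9.65 to 12.11, 11.57 and 11.87 and Hlf from 2.17, 2.67 and 1.76 to 5.22, 4.72 and 5.63. The repressor Nfil3, also needed for NKC development, fell from 12.03, 11.34 and 11.95 to 8.93, 9.62 and 9.01. Tef, another such activator, had a difference of 0.57 ± 0.88 and was not called. Arntl (BMAL1) rose by 1.85 ± 0.75. The activation-induced receptors Nr4a2 and Nr4a3 fell by 2.66 ± 0.94 and 1.68 ± 1.0 on the log2 scale. The 9 rises became 3, 8 and 7 without pair 1, 2 and 3.

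Sugar-transferring enzymes of the cell surface were called in 10 of 48 tested cases (20.8%), close to the share over all tested genes. Sialyltransferases were among the 7 that rose: St6gal1 had 1.76, 2.99 and 1.72 in WT and 8.65, 7.42 and 8.69 in KO arrays, St3gal2 rose by 4.15 ± 0.74 and St3gal1 by 3.42 ± 0.80. The fucosyltransferases Fut7 and Fut4, which build selectin ligands, fell by 3.31 ± 1.19 and 2.51 ± 0.72 on the log2 scale to background. The 7 rises became 3 without pair 1 and stayed at 7 without pair 2 or 3.

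Of 32 oxidant defence genes 6 rose (18.8%, against 10.5% over all tested genes) and 2 fell (6.25%). Nfe2l2 (NRF2), which drives such genes, rose from 8.74, 9.46 and 9.05 to 11.67, 10.95 and 11.36, its targets Nqo1 and Gclm by 2.37 ± 0.53 and 1.63 ± 0.62, and the peroxiredoxin Prdx4 by 2.95 ± 1.12. Hmox1, the haem oxygenase often named as a target of NRF2, fell by 2.38 ± 0.60 on the log2 scale. Chaperones fell in 8 of 33 cases (24.2%, against 9.17% over all tested genes) and rose in 1. Dnajb4 had 11.20, 10.53 and 11.10 in WT and 6.94, 7.6 and 7.03 in KO arrays, and Hspa4l, Hspa4, Hspa9 and Hsp90aa1 fell too. In the endoplasmic reticulum 6 of 32 genes fell (18.8%, against 9.17% over all tested genes) and 0 rose, so that the share called in all was near the 19.7% over all tested genes, with Pdia5 (-2.94 ± 0.88) and the stress kinase Eif2ak3 (-1.81 ± 0.36) the lowest of them. Without pair 1, 2 and 3 the chaperone falls numbered 3, 2 and 5, those of the endoplasmic reticulum 2, 3 and 2, and the rises in oxidant defence 2, 7 and 5.

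Genes of protein synthesis and breakdown were examined next. Of 34 ribosomal protein genes 1 was called (2.94%, against 19.7% over all tested genes), Rps6, which fell by 1.03 ± 0.40 on the log2 scale, and the list had a median of 0.04. Of 35 proteasome subunits 2 fell (5.71%), Psmc6 and Psme4, and of 38 translation factors 5 fell (13.2%, against 9.17% over all tested genes) and 0 rose, among them Eif2s2 by 2.36 ± 1.10 and Eif4ebp1 by 1.68 ± 0.14 on the log2 scale. The fall of Psmc6 was by 1.84 ± 1.37 on the log2 scale, and another of its probe sets had a difference of 0.34 ± 0.32. Without pair 1, 2 and 3 the translation factors had 0, 2 and 4 falls and the proteasome 0, 0 and 3.

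Markers of NKC and of cells that could be mixed with them were examined next. Of 12 tested NKC markers 2 rose, Ncr1 and Tbx21, and 1 fell, Prf1 (25% called, near the 19.7% over all tested genes). The summed signal of the 13 NKC markers lay between 17.79 and 18.04 in WT and between 17.60 and 17.84 in KO arrays (log2). Itga2, the gene of the DX5 antigen, was at background with means of 2.20 and 2.22. Both tested markers of gamma delta T cells rose. Trgv4 had 5.82, 5.89 and 4.75 in WT and 11.93, 11.86 and 13 in KO arrays, and Cd163l1 (SCART1), a scavenger receptor of these cells, had 6.33, 6.12 and 5.84 against 11.28, 11.50 and 11.77. Sox13, another of their genes, had means of 2.96 and 3.78. The summed signal of these 3 genes lay between 6.52 and 7.18 in WT and between 12.64 and 13.51 in KO arrays.

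T cell genes were mixed. Bcl11b, a T lineage factor, had 7.18, 7.15 and 7.09 in WT and 10.25, 10.29 and 10.34 in KO arrays, and Lat rose. Cd3d (0.90 ± 2.28), Cd3e (1.14 ± 1.15) and Cd3g (-0.56 ± 1.37) were not called, and Cd4, Cd8a, Cd8b1, Cd5, Cd6 and Themis were under log2 5 in both means. Of 6 tested genes of helper-like innate lymphoid cells 5 rose (83.3%, against 10.5% over all tested genes). These were Il7r, Rora, Gata3, Lta and Tmem176b, while Il5, Il13 and Il17rb lay at background. In IL-2, Il7r and Rora reached log2 5 in KO arrays alone, so the filter can raise this share. Tmem176b had 9.11, 9.32 and 8.73 against 12.24, 12.03 and 12.63. Il7r had means of 3.02 and 5.4. Without pair 1 the 5 rises became 2. Of 10 B cell markers 8 were under log2 5 in all 6 arrays, Cd79a, Ms4a1 and Pax5 included, and the 2 tested, Blk and Ighm, rose. In the dendritic cell list Cd74 rose from 3.12 to 7.68 and H2-Aa from 4.46 to 7.10 in mean, Fscn1 and Batf3 fell, and Xcr1, Siglech and Flt3 lay at background. Of the macrophage genes Cd14 fell, and Lyz2 (2.90 ± 3.15), Csf1r (-1.56 ± 3.31) and Cd68 (1.23 ± 1.74) were not called and varied widely between pairs. The part of other cells in the differences of these genes was not tested.

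**Figure D4:**
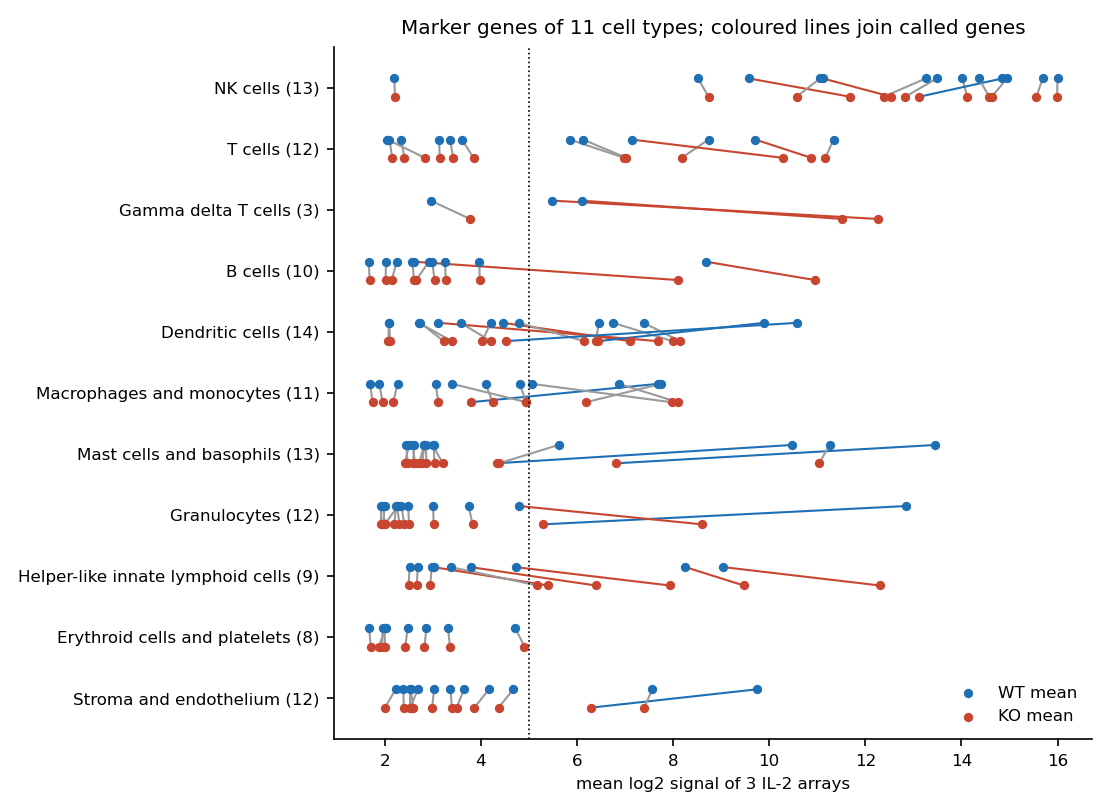
Mean log2 signal (x axis) of the marker genes of 11 cell types in the 3 WT (blue) and 3 KO (red) IL-2 arrays, with a line joining the means of each gene, red where it rose, blue where it fell and grey otherwise, the number of genes in parentheses and log2 5 as a dotted line. Most NKC markers stayed high in both genotypes, the gamma delta T cell genes Trgv4 and Cd163l1 moved from near log2 6 to about log2 12, and most B cell, mast cell and granulocyte markers lay at background.

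The 3 pairs did not contribute alike. Over all tested genes the SD of the pair differences was 1.33, 1.23 and 1.37, and the median difference 0.29 in pair 1, 0.01 in pair 2 and 0.03 in pair 3. Across genes, which are not independent replicates, pair 1 correlated with pair 2 at r = 0.717 and with pair 3 at r = 0.701, and pairs 2 and 3 at r = 0.58. The widest spread among large falls was in Gzmg, Gzmf, Tmem119, Sult2b1 and Scd1. Some values lay above log2 16, the top of a 16-bit scale, in 13 tested genes of which Gzmc, Gzmf and Gzmg were called, and their differences are uncertain in size. Gzmg had pair differences of -7.04, -1.38 and -12.35, and Tmem119 of -11.30, -4.88 and -11.59. In all 5 the second pair had the smallest difference. Among large rises Ccdc80 had pair differences of 5.70, 0.13 and 5.97 and Tox2 of 0.16, 5.07 and 4.63, so the mean of each rested on 2 pairs. Tspan32, Rxra, Nt5dc2, Abca3, Tnfsf14 and Bcl11b had an SD of at most 0.35.

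In IL-15, where 2 pairs were measured in other arrays, 28 of the 30 genes with the largest rises and 29 of the 30 with the deepest falls had a difference of the same sign. These shares were 93.3% and 96.7%, against 87.0% of all genes that rose and 86.6% of all that fell. Trgv4 had 6.78 ± 1.28 in IL-2 and 7.13 ± 0.65 in IL-15, Dsc2 -6.78 ± 1.38 and -7.49 ± 2.03, and Scin -6.96 ± 2.73 and -7.57 ± 1.07. The differences of other genes were near 0 in IL-15: Cd163l1 had 5.42 ± 0.49 in IL-2 and 0.33 ± 0.03 in IL-15, Sh3d19 6.65 ± 1.08 and -0.14 ± 0.17, Fads3 -5.65 ± 0.83 and -0.11 ± 0.01, Cth -6.10 ± 1.25 and 0.03 ± 0.08, and S1pr3 -6.01 ± 0.92 and -0.56 ± 0.42. The test of the difference between cytokines (limma, all 9391 genes) called 0 genes, with a smallest adjusted p of 0.0551 for Cd163l1, Sh3d19, Fads3 and Ret. At an unadjusted p under 0.05 and 1.5-fold it called 1106. With a minimum of log2 7 in place of log2 5 it called 6, these 4 with Dhrs3 and S1pr3. Without the pairing it called 1157, in a fit that takes the spread as too small.

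**Figure D5:**
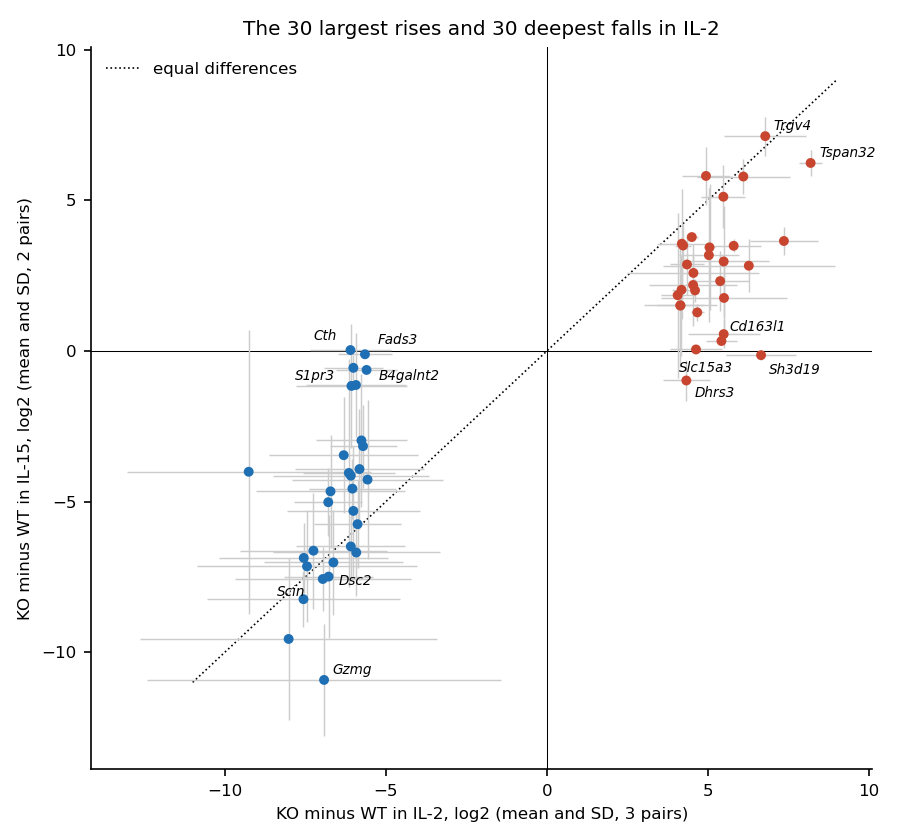
Log2 difference between KO and WT in IL-2 (x axis; mean and SD over 3 pairs) and in IL-15 (y axis; mean and SD over 2 pairs) for the 30 largest rises (red) and 30 deepest falls (blue) in IL-2, with a dotted line of equal differences. Most genes lay on the same side of 0 on both axes, and Cd163l1, Sh3d19, Cth, Fads3, S1pr3 and B4galnt2 lay near 0 in IL-15.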

How the data were processed

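RNA of cultured NKC was hybridised to Affymetrix mouse genome arrays with 45101 probe sets. The deposited values are log2 signals that the authors made with GC-RMA in Partek, in versions not given in the sources used here. In these values the WT and KO array of each numbered pair had the same sum for every probe set (largest difference 0.00014 in IL-2 and 0.00013 in IL-15), whereas crossed pairs differed by a median of 0.1969, so a pair term had been removed before deposit. No source used here describes that step. The replicate numbers were therefore taken as pairs.

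Probe sets with 1 gene symbol (34958) were kept, 932 with several and 9211 with none were left out, and the probe set with the highest mean over 10 arrays stood for its gene. Genes at log2 5 or more in at least 2 arrays were tested with limma 3.58.1 in R 4.3.3 on all 10 arrays, with pairs as blocks, which left 3 residual degrees of freedom. P-values were adjusted by Benjamini-Hochberg, and genes were called under 0.05 at 1.5-fold or more. The code was tested on simulated data, in which 8.4% of log2 changes of 1 and 85.6% of those of 2 were called. The simulation changed fewer genes than were called in the data. This makes its adjusted p stricter, so both shares may be too low for the data. A gene that was not called may still differ. For arrays, the number of samples limits the precision.

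Members and lists were chosen with earlier results of these data known. Named genes were the largest, most certain and brightest calls, the leading members of each list, genes at background in one genotype, runs of neighbours, widely spread genes and Runx3, and others, among them S1pr5, were named after their values were seen. Promoters came from RefSeq (GRCm38.p6). Alternatives covered the block, the samples, the filter, the scaling, the probe set rule, the variance prior and each pair left out.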

Additional observations from a re-analysis of the deposited data

How the results depend on the processing

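The count of called genes in IL-2, 1851 (990 higher and 861 lower), depended on the fit. Without a replicate block it was 3803 (2161 higher, 1642 lower), with no filter on low values 842 (501 and 341), and at an unadjusted p with 1.5-fold 3391 (1920 and 1471). The fit without a block takes its spread as too small, because the deposited pairs have equal sums. In simulated data 18.2% of unchanged genes had a limma p under 0.05 without the block, against 4.69% with it. Leaving out a pair gave between 537 and 1525 calls, of which 253 to 888 were higher and 284 to 637 lower. The fewest calls came without pair 1, when 522 of the 1851 remained. With the IL-2 arrays alone 1292 genes were called, and 1270 of them were among the 1851. Centring the arrays on their median moved the median of all tested genes from 0.11 to 0.047 and the share of higher genes among calls from 53.5% to 49.2%. Using the mean of all probe sets of a gene gave 1715 calls and turned the direction of 3 of the 1851 genes. With no filter on low values the rises of histones became 3 of 9, of DNA repair 2 of 10, of clock genes and nuclear receptors 4 of 9 and of antigen receptor signalling 8 of 12, the falls of chaperones 2 of 8 and of the endoplasmic reticulum 2 of 6, and the 3 calls among NKC markers were lost. The cause of these changes was not tested. The difference between cytokines had 0 calls, against 1157 without a replicate block, 1106 at an unadjusted p and 6 with a minimum of log2 7. Among named genes that were not called, some differences that were near 0 or varied widely between pairs took the other sign. Acly had -0.01 with centred arrays, -0.06 after quantile normalization, and -0.11 with the mean of all probe sets, where Actb had 0.08, Egln1 -0.18 and Slc38a2 0.28. Leaving out a pair gave ranges of -0.04 to 0.1 for Acly, -0.03 to 0.01 for Actb, -1.13 to 0.2 for Cd3g, -3.23 to 0.08 for Csf1r, -0.23 to 0.06 for Ctnnb1, -0.28 to 0.69 for Egln1, -1.57 to 0.09 for Elovl6, -0.03 to 0.24 for Fads1, -0.1 to 0.04 for Higd1a, -0.65 to 0.04 for Kit, -0.28 to 0.18 for Psph, -0.35 to 0.26 for Slc38a1 and -0.55 to 0.09 for Xist. The 3 pairs per genotype, of which the deposited values keep the differences alone, limit what these arrays can show.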
